A study of Mus musculus with 105 samples.

Results

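The Hox genes of the mouse are 39 homeobox genes that lie in 4 clusters, and all 39 were found by their symbols among the 52108 genes of the bulk RNA-sequencing tables and also in the single-cell table. They were chosen by name alone and not by any measured value. HoxA (11 genes) spans 52155590 to 52260880 on chromosome 6, HoxB (10 genes) 96194316 to 96368256 on chromosome 11, HoxC (9 genes) 102921103 to 103036852 on chromosome 15 and HoxD (9 genes) 74668310 to 74765142 on chromosome 2 (GRCm38, which is mm10). The series profiled female mouse embryonic stem cells (mESCs) during differentiation by withdrawal of 2i/Lif, to follow the onset of X inactivation. TX1072 is an F1 hybrid line of the strains C57BL6/J (B6) and Cast/EiJ (Cast), in which Xist stands behind a doxycycline-responsive promoter on the B6 X chromosome and rtTA is inserted at Rosa26. TXΔXicB6 and TXΔXicCast were made from TX1072, carry both modifications as well, and lack the region around Xist on the B6 or the Cast X chromosome. Bulk RNA came from 3 replicates per line and day at days 0, 1, 2, 3 and 4, which gave 45 libraries, and single TX1072 cells came from 1 culture per day.

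At day 0 the cells grew in serum with Lif and inhibitors of Gsk3 and Mek (2i), and at the later days in serum without Lif or inhibitors. Each deletion line is a single clone, so that the deletion and the clone cannot be told apart. The 3 day 0 libraries of TXΔXicCast were made from degraded RNA with another fragmentation, and the TX1072 libraries were made with another kit and sequencer than those of the deletion lines. Values of TX1072 are therefore set beside those of the deletion lines without a test. Libraries held between 19827011 and 39628784 counts in TX1072, between 20246434 and 49962859 in TXΔXicB6 and between 16906263 and 57920260 in TXΔXicCast. Replicates were differentiated on different days from the same line, and the p-values measure the spread between them. The label of the cells was checked with 8 markers of naive pluripotency. Their summed level in TX1072 was 5003 ± 204 CPM (SD, n = 3) at day 0, with Tfcp2l1 the most abundant, and 435.4 ± 49.5 CPM at day 4, with Nanog the most abundant.

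Hox genes encode transcription factors that give cells their position along the head-to-tail axis of the embryo. Genes of the same rank in the 4 clusters form 13 paralogue groups, and the order of the groups along a cluster follows the order in which they are switched on in the embryo: groups 1 to 3 (anterior) come first and groups 9 to 13 (posterior) last, with groups 4 to 8 (central) between them. In pluripotent cells the clusters are textbook targets of Polycomb repression, and retinoic acid, Wnt and Fgf signals and the caudal factors switch them on during gastrulation.

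Hox RNA was highest at day 0 and had fallen by day 1. The 39 genes together reached 92.1, 109 and 107 CPM in the 3 day 0 replicates of TX1072 and 8.70, 9.24 and 9.74 CPM at day 1. CPM are the per-million counts of a gene in a library, after scaling with TMM factors. At day 4 the 3 replicates held 7.92, 7.59 and 11.5 CPM. Every day 0 replicate was thus far above every later one, with a mean 11.2 times that of day 1 and 11.4 times that of day 4. At days 0, 1 and 4 the sum was 152 ± 1.97, 28.1 ± 2.62 and 9.97 ± 3.01 CPM in TXΔXicB6. In TXΔXicCast it was 146 ± 20.9, 19.1 ± 2.05 and 12.8 ± 2.54 CPM. In bulk RNA, fewer cells with a transcript and less RNA per cell cannot be told apart.

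**Figure D1:**
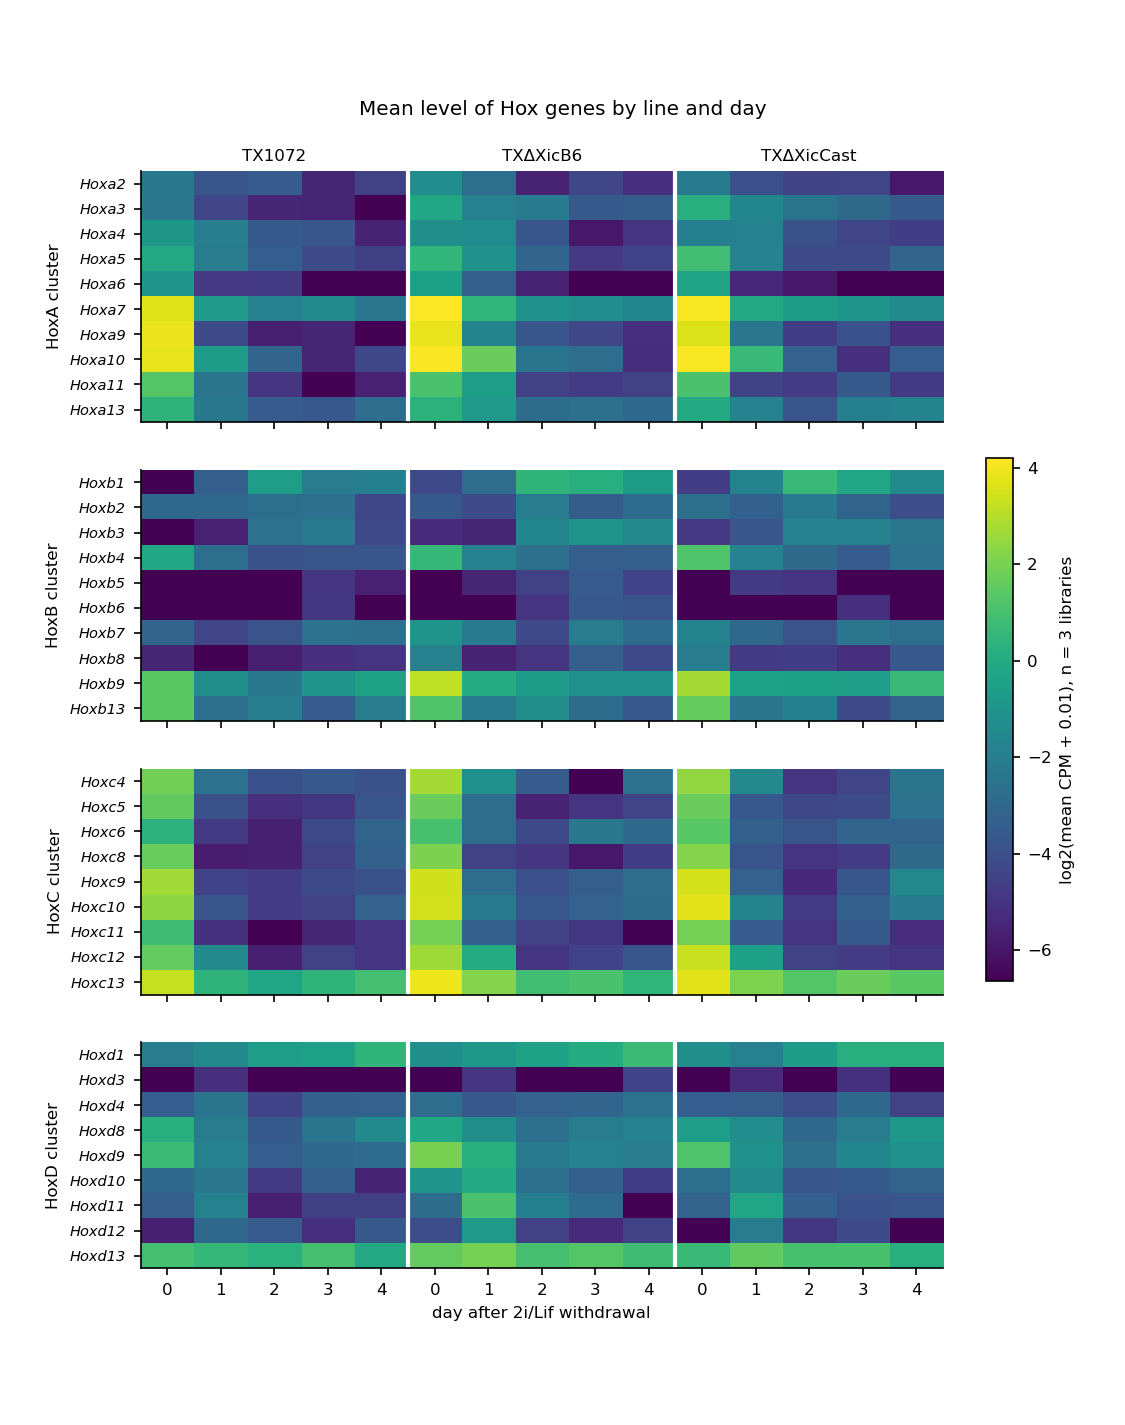
Mean level of Hox genes (rows, by cluster and paralogue group) in TX1072, TXΔXicB6 and TXΔXicCast at days 0 to 4 (columns, n = 3 libraries each), on a colour scale of log2(mean CPM + 0.01), brighter for higher levels. The day 0 columns are the brightest in most rows of HoxA and HoxC. Hoxb1 and Hoxd1 are brighter after day 0 than at day 0, except Hoxd1 in TXΔXicCast at day 1, which is darker.

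The clusters differed in how much of the Hox RNA they held. In TX1072 at day 0, HoxA gave 53.1 ± 3.30% and HoxC 35.6 ± 2.75% of the summed CPM, against 6.28 ± 0.12% for HoxB and 5.05 ± 0.54% for HoxD (SD, n = 3). From day 0 to day 4 the HoxA sum went from 54.5 ± 4.35 to 2.02 ± 0.31 CPM and the HoxC sum from 36.8 ± 5.26 to 2.46 ± 0.94 CPM. HoxB went from 6.47 ± 0.68 to 1.55 ± 0.38 CPM and HoxD from 5.23 ± 0.98 to 2.98 ± 0.93 CPM, so that HoxD made up 32.8 ± 3.79% of the sum at day 4. The posterior groups held 65.5 ± 1.32% of the sum at day 0 and 48.6 ± 8.02% at day 4. The anterior groups held 7.45 ± 0.28% at day 0 and 37.5 ± 6.04% at day 4, while their summed level went from 7.66 ± 0.43 CPM at day 0 to 1.65 ± 0.17 CPM at day 1 and 3.31 ± 0.49 CPM at day 4. Their share was thus higher at day 4 with a lower level than at day 0.

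In the fit of all 18871 TX1072 genes that passed the filter on low counts, 26 of the 39 members could be tested (edgeR quasi-likelihood test, Benjamini-Hochberg adjusted p under 0.05). At day 4 against day 0, 24 members were lower and 2 higher, where 29.4% of all tested genes were lower and 30.2% higher. The median log2 fold change was -4.84 over the 26 members, or -4.32 with the 3 members at 0 in one group set to their bound, and -0.03 over all genes. Of the 26 members, 17 would not have passed the filter without their day 0 libraries, so that their number is a description. The others, among them Hoxa7, Hoxa10, Hoxb1, Hoxb9, Hoxc13, Hoxd1, Hoxd8 and Hoxd13, passed through later libraries too; of these, Hoxb1 and Hoxd1 rose and the rest fell. Hoxb1 and Hoxd1 in turn had fewer than 3 day 0 libraries above the limit of the filter and passed through the later days, where they are high, so that their rise is a description as well. Lower at day 4 were 9 of 9 HoxA members tested, 9 of 9 of HoxC, 3 of 4 of HoxB and 3 of 4 of HoxD. By paralogue group, both risers belonged to group 1, no member of groups 2 and 3 could be tested, and every member tested in groups 4 to 13 fell.

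Most of the members had already fallen at day 1 in TX1072, when 22 members were lower and 1, Hoxb1, higher (23.4% and 23.5% of all genes). Hoxa4, Hoxd1 and Hoxd13 did not pass the test at that day. At day 2 and again at day 3, 23 members were lower and 2 higher (27.2% and 28.8% of all genes at day 2, 27.9% and 28.1% at day 3). With day 1 in place of day 0 as the reference, a choice made after the data were seen, 7 members were lower at day 4 and 2, Hoxc8 and Hoxd1, higher (28.1% and 30.7% of all genes). Hoxc8 had a single count over the 3 day 1 libraries.

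The members not tested in TX1072 were Hoxa2, Hoxa3, Hoxb2, Hoxb3, Hoxb5, Hoxb6, Hoxb7, Hoxb8, Hoxd3, Hoxd4, Hoxd10, Hoxd11 and Hoxd12. At day 0 Hoxb3, Hoxb5, Hoxb6 and Hoxd3 had no count in any TX1072 library, where 3 counts over the 3 libraries would be 0.035 CPM. Hoxd3 shares 62.35% of its exon bases with Gm28230 and Hoxd4 on the same strand. How reads over shared exons were counted is not given in the sources used here, so the 0 of Hoxd3 does not show absent RNA. Hoxa2 (0.197 ± 0.098 CPM) and Hoxa3 (0.184 ± 0.078 CPM) were the most abundant of the untested members at day 0.

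The neighbours Hoxa7, Hoxa9 and Hoxa10 in HoxA lost nearly all of their RNA. Hoxa9, a posterior gene on chromosome 6 (52223100 to 52231089, minus strand) that is also known for its role in leukemia, stood at 15.7, 15.4 and 13.0 CPM at day 0 in the 3 TX1072 replicates, at 0.029, 0.049 and 0.061 CPM at day 1, and at 0 in all 3 at day 4. All day 0 values were above 13 CPM and no later value reached 0.1 CPM. The day 0 libraries held 1279 counts of Hoxa9 and those of day 4 none, which makes the level at least 469-fold lower (against 3 counts over the 3 libraries). Hoxa9 would not have passed the filter without day 0, so that this is a description with no test. In the deletion lines Hoxa9 went from 1090 to 2 counts in TXΔXicB6, a ratio of 721 (95% counting interval 199 to 5960), and from 1189 to 3 counts in TXΔXicCast, a ratio of 456 (156 to 2216).

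Hoxa10, a posterior gene with a role in uterus and limb, stood at 13.0, 14.2 and 15.2 CPM at day 0 and at 0.553, 0.519 and 0.789 CPM at day 1 in TX1072. At day 4 it was at 0, 0.032 and 0.090 CPM, a log2 fold change of -8.25 ± 0.52 (SE, adjusted p = 1.72e-10, edgeR). Hoxa10 fell more slowly in the deletion lines, where day 1 still held 2.72, 3.81 and 3.28 CPM in TXΔXicB6 and 1.16, 1.01 and 2.51 CPM in TXΔXicCast. Both lines were above every TX1072 library of that day, but they come from another table and were not tested against it.

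Hoxa7, a central gene, stood at 11.1, 15.8 and 11.01 CPM at day 0 and at 0.205, 0.254 and 0.090 CPM at day 4 in TX1072, and the groups did not overlap. Its log2 fold change at day 4 was -6.09 ± 0.31 (adjusted p = 9.43e-12, edgeR), with -5.85 ± 0.34 in TXΔXicB6 and -5.62 ± 0.34 in TXΔXicCast. Per kilobase of exon, the day 0 levels in TX1072 were 4.40 ± 0.955 CPM for Hoxa7, 4.31 ± 0.342 for Hoxa10 and 3.81 ± 0.611 for Hoxc13 (SD, n = 3). These 3 do not differ beyond their spread.

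All 9 members of HoxC passed the filter and were lower at day 4 in all 3 lines. In TX1072 only Hoxc13 of them would have passed without day 0, and in the deletion lines Hoxc4, Hoxc10, Hoxc12 and Hoxc13, so that for the others both the test and the fall follow from the high day 0 levels. Hoxc9, a posterior gene named here after its values were seen, stood at 4.84, 7.57 and 7.10 CPM at day 0 in TX1072 and at 0, 0.074 and 0.030 CPM at day 1. No day 1 library held more than 3 counts of it. Its log2 fold change at day 4 was -6.82 ± 0.54 (SE), given as a description since Hoxc9 would not have passed the filter without day 0. Hoxc13, the most posterior member and known for its role in hair and nails, was the exception to such low levels. It stood at 8.30, 8.74 and 11.1 CPM at day 0, at 0.837, 0.742 and 0.872 CPM at day 2 and at 1.16, 1.87 and 2.82 CPM at day 4. The day 4 values lie above those of day 2 and below those of day 0, and the log2 fold change from day 0 was -2.25 ± 0.25 (adjusted p = 2.81e-07, edgeR). From day 1 to day 4 it changed by 0.57 ± 0.26 on the log2 scale (adjusted p = 0.0705, edgeR), which did not pass the test.

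Hoxb9, a posterior gene of HoxB, stood at 2.08, 2.76 and 3.15 CPM at day 0 and at 0.444, 0.762 and 1.02 CPM at day 4, a log2 fold change of -1.82 ± 0.36 (adjusted p = 0.00027, edgeR). Hoxd13, the last gene of HoxD and known for its role in digits, showed the smallest fall in TX1072. It stood at 1.70, 2.12 and 1.98 CPM at day 0 and at 0.785, 0.476 and 1.50 CPM at day 4 (-1.05 ± 0.35, adjusted p = 0.0153, edgeR). These groups did not overlap, but the call was lost without replicate 1 and without replicate 2.

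**Figure D2:**
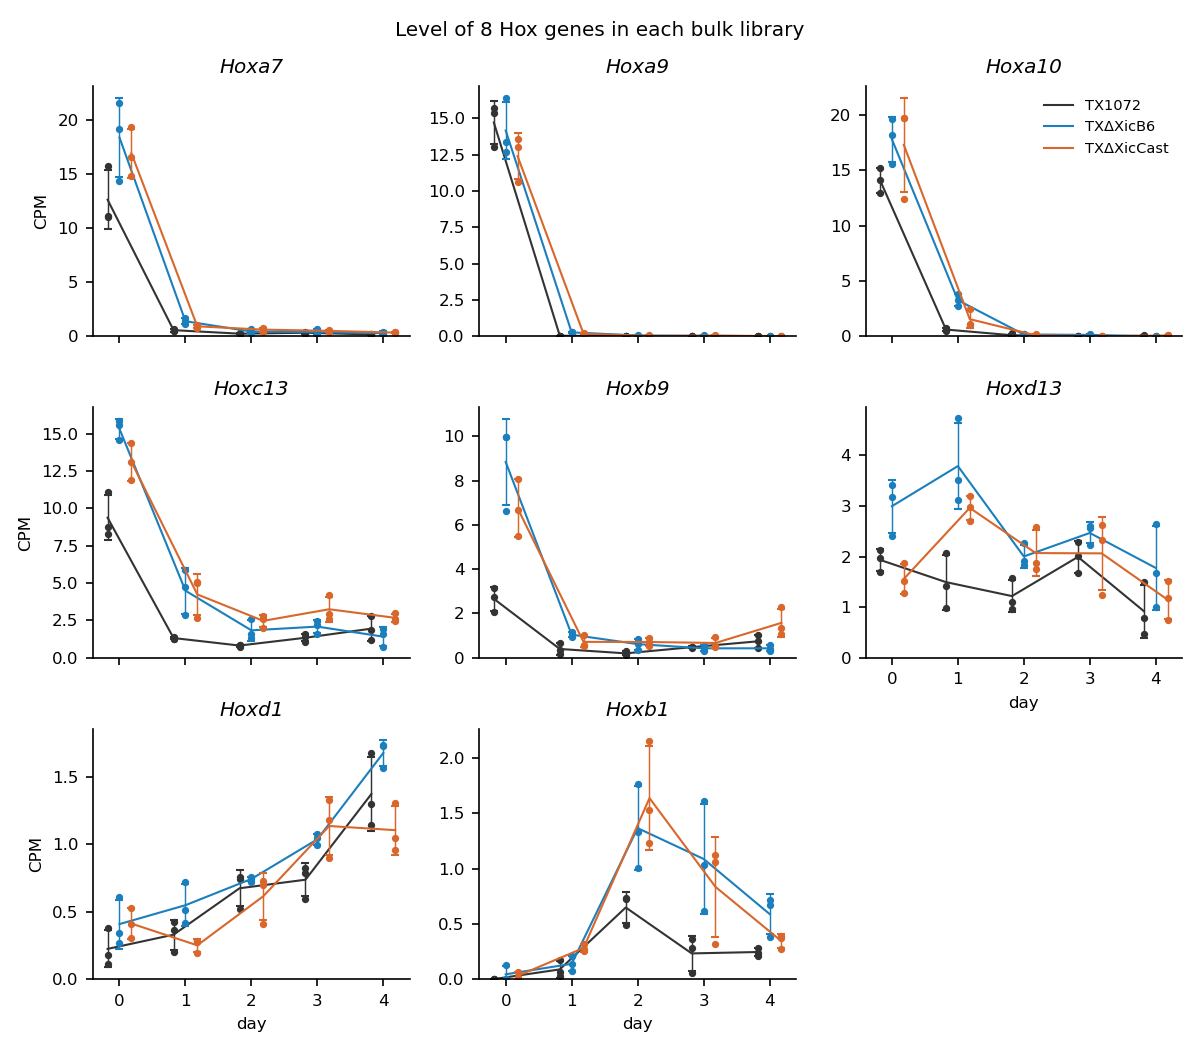
Level (CPM, y axis) of 8 Hox genes at days 0 to 4 (x axis) in TX1072, TXΔXicB6 and TXΔXicCast. Points are libraries, lines join the means and bars are the SD (n = 3). Hoxa7, Hoxa9 and Hoxa10 drop to under 4 CPM at day 1, and Hoxc13 and Hoxb9 stay above 0 at day 4 in every library. The means of Hoxd1 and Hoxb1 are higher after day 0 than at day 0, except that of Hoxd1 in TXΔXicCast at day 1, which is lower.

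Hoxb1 and Hoxd1 were the members of group 1 that rose. Hoxb1, a marker of the early neural plate and later of rhombomere 4 of the hindbrain, had no count in the 3 day 0 libraries of TX1072. It stood at 0.723, 0.485 and 0.736 CPM at day 2 and at 0.239, 0.286 and 0.210 CPM at day 4. All day 2 libraries were above all day 4 libraries, and the 23 counts at day 4 make it at least 6.98-fold higher than at day 0. In TXΔXicB6 it reached 1.00, 1.77 and 1.33 CPM at day 2 and in TXΔXicCast 1.53, 1.23 and 2.16 CPM, with 3 counts in all at day 0 in each line. From there it was 0.668, 0.715 and 0.385 CPM at day 4 in TXΔXicB6, which is 15.9 times day 0 (counting interval 5.19 to 79.0), and 0.369, 0.393 and 0.270 CPM in TXΔXicCast, which is 11.003 times day 0 (3.49 to 55.7).

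Hoxd1, the first gene of HoxD in the anterior order and known from pain-sensing neurons, was higher at day 4 than at day 0 in all 3 lines. In TX1072 it stood at 0.379, 0.114 and 0.180 CPM at day 0, at 0.761, 0.742 and 0.518 CPM at day 2 and at 1.30, 1.14 and 1.68 CPM at day 4. The day 2 values lie above those of day 0 and below those of day 4. In TXΔXicCast it stood at 0.527, 0.301 and 0.408 CPM at day 0, at 0.282, 0.275 and 0.193 CPM at day 1 and at 0.412, 0.701 and 0.730 CPM at day 2, and neither day passed the test against day 0. The log2 fold change at day 4 was 2.51 ± 0.38 in TX1072 (SE, a description), 2.05 ± 0.29 in TXΔXicB6 (adjusted p = 8.9e-07, edgeR) and 1.47 ± 0.29 in TXΔXicCast (adjusted p = 7.82e-05). Per kilobase of exon, Hoxd1 stood at 0.737 ± 0.148 CPM at day 4 in TX1072, next to Hoxc13 at 0.793 ± 0.338, and these 2 do not differ beyond their spread.

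Hoxb3, an anterior gene named after its values were seen, was tested in the deletion lines only. It had 1 count at day 0 and 34 at day 4 in TXΔXicB6 (a ratio of 25.7, counting interval 4.31 to 1045) and 3 and 21 counts in TXΔXicCast (6.08, 1.82 to 31.8). In TX1072 it had 0 counts at day 0 and 4 at day 4. No day 0 or day 1 library was above the limit of the filter, which Hoxb3 passed through the days where it is high, so that its rise is a description. Its exons overlap those of the antisense gene Hoxb3os over 52.9% of their length, and the strand setting of the counting is not given in the sources used here, so that reads of the 2 genes cannot be told apart. The same holds for Hoxa11 with Hoxa11os over 35.0% of its exon length and for Hoxa7 with Hoxaas3 over 20.4%.

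The sequences at RefSeq starts of transcription of some members are given as examples of genes that rose, fell or peaked at day 1. Promoter windows (250 bases before to 50 after the start of transcription) of RefSeq, build GRCm38.p6, matched 22 of the members, with 24 windows. They are shown for the 2 risers, for 2 members that fell and for 1 that peaked at day 1 in the deletion lines, each 5′ to 3′ along its gene. Capitals mark matches on either strand to the letters searched, which were AGGTCA (the core site of retinoic acid receptors), TTTATG (caudal factors), TGATTNAT (Hox with Pbx) and TGACAG (Meis).
Hoxb1, chr11:96365508-96365807, plus strand: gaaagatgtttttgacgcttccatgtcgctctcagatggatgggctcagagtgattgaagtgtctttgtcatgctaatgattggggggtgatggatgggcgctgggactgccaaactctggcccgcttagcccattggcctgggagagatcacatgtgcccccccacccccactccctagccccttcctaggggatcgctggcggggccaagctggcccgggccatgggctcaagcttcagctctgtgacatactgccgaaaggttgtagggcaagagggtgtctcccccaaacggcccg
Hoxd1, chr2:74762730-74763029, plus strand: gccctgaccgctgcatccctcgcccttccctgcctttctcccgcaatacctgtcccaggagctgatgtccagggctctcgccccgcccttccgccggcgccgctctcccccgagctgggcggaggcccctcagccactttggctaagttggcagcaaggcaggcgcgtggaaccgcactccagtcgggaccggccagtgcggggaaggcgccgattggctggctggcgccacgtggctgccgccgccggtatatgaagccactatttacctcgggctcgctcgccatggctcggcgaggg
Hoxa7, chr6:52218524-52218823, minus strand: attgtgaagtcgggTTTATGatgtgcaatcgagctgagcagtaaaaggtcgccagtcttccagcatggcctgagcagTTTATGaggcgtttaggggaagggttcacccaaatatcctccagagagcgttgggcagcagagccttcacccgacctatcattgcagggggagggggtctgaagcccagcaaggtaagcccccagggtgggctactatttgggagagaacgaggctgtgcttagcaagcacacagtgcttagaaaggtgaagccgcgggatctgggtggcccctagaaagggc
Hoxc4, chr15:103034145-103034444, plus strand: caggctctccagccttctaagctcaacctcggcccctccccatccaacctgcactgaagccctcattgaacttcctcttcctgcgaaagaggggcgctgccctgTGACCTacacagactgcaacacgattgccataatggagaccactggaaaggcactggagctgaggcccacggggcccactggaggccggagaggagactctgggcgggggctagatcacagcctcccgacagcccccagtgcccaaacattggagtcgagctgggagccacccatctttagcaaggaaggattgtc
Hoxd11, chr2:74679308-74679607, plus strand: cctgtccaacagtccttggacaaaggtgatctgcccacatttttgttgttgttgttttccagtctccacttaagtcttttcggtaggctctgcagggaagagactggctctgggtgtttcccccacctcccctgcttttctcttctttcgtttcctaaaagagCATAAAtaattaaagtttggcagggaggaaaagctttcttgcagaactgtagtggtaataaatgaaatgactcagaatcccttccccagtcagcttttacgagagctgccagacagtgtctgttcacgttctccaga
Hoxd11, chr2:74682073-74682372, plus strand: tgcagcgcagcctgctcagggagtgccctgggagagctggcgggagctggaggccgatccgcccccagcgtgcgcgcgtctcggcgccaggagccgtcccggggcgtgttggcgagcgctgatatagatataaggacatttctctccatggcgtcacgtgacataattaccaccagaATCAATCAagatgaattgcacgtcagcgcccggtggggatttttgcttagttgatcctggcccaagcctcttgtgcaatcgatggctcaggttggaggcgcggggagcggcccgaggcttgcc
No exact match to these letters is in the windows of Hoxb1 and Hoxd1, and none is in those of Hoxa6, Hoxa9, Hoxa10, Hoxa11, Hoxa13, Hoxd9 and Hoxd13, which fell in TX1072. Variants of these letters were not searched, so that sites for the same factors may still lie in these windows. Exact matches to the letters therefore do not set the 2 risers apart from these members that fell. The Hoxa7 window holds TTTATG at 2 places and the Hoxc4 window AGGTCA, read there as its complement TGACCT. Both windows lie inside the annotated genes, which start at 52221854 (Hoxa7, minus strand) and 103018934 (Hoxc4, plus strand). Of the 2 windows of Hoxd11, the one at the annotated start of the gene holds TTTATG, read as CATAAA, and the internal one TGATTNAT, read as ATCAATCA. Of the 24 windows, 7 held AGGTCA (29.2%), against 16.3% of 32851 windows of all genes, and 5 held TTTATG (20.8% against 11.9%). TGATTNAT was in 2 (8.33% against 3.22%) and TGACAG in 2 (8.33% against 19.2%). The median ratio of observed to expected CG was 0.626 in the Hox windows and 0.384 in all windows.

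The day 4 fall was also seen in the deletion lines, fitted together over 19885 genes with 32 members tested. In TXΔXicB6 28 members were lower at day 4 and 3 higher (29.5% and 30.0% of all genes). In TXΔXicCast 23 were lower and 3 higher (33.6% and 36.2%). The members higher were Hoxb1, Hoxb3 and Hoxd1 in both lines. Of the members lower in each line, 22 were lower in all 3 lines, and Hoxb1 and Hoxd1 were higher in all 3. The share of all genes called the same way in all 3 lines was not computed, so that these counts are a description. In the deletion lines 10 of the 32 members would not have passed the filter without day 0, and Hoxb1, Hoxb3, Hoxd11 and Hoxd12 passed it with no day 0 library above its limit. The median log2 fold change over the members was -4.23 in TXΔXicB6 (-4.06 with members at 0 in one group set to their bound) and -3.82 in TXΔXicCast, against -0.01 and 0.06 over all genes. Against the day 0 libraries of TXΔXicB6, whose RNA was not degraded, 27 members were lower at day 4 in TXΔXicCast and 3 higher (30.8% and 31.2% of all genes), an alternative added after the data were seen. With day 1 as the reference, 20 members were lower at day 4 and 3 higher in TXΔXicB6 (28.7% and 27.9% of all genes), and 11 lower and 3 higher in TXΔXicCast (30.1% and 29.3%). At days 2 and 3 against day 0, 26 and 25 members were lower in TXΔXicB6 (27.2% and 28.0% of all genes) and 3 higher at both days (28.9% and 29.8%). In TXΔXicCast 25 and 24 were lower (31.9% and 32.8%), and 2 and 3 higher (34.5% and 35.8%).

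**Figure D3:**
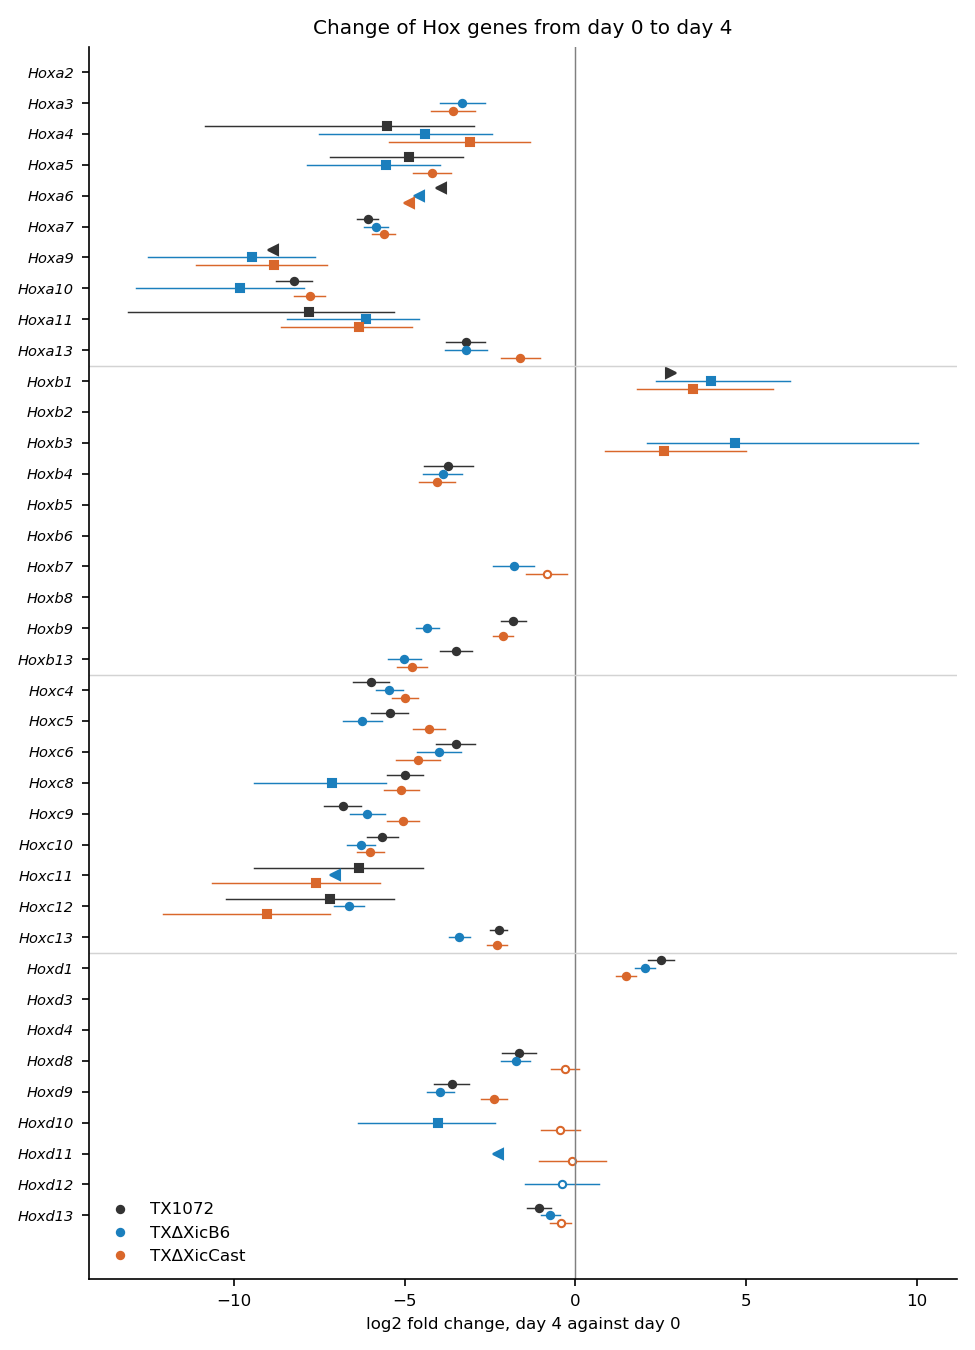
Log2 fold change from day 0 to day 4 (x axis) of Hox genes tested (y axis, by cluster) in TX1072, TXΔXicB6 and TXΔXicCast. Circles are fitted values with SE, squares are ratios with a 95% counting interval where a group held 1 to 3 counts, triangles are bounds where a group held no count, open symbols did not pass the test, and blank rows were not tested. Nearly all symbols lie below 0, and those of Hoxb1, Hoxb3 and Hoxd1 lie above it.

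Some posterior members of HoxD peaked at day 1 in the deletion lines. At day 1, 22 members were lower in TXΔXicB6 and 3 higher (21.8% and 23.9% of all genes), namely Hoxd10, Hoxd11 and Hoxd12. In TXΔXicCast 22 were lower and 5 higher (28.3% and 30.6%), namely the same 3 with Hoxb1 and Hoxd13. Hoxd11 and Hoxd12 passed the filter through their day 1 libraries, where they are high, so that their calls at that day are a description. Hoxd11, named after its values were seen, stood at 0.041, 0.234 and 0.129 CPM at day 0 in TXΔXicB6, at 2.76, 2.35 and 1.19 CPM at day 1 and at 0.251, 0.425 and 0.072 CPM at day 2. Its day 1 libraries were above all others of the line, with a log2 fold change of 3.87 ± 0.61 (SE). In TXΔXicCast the day 1 values were 1.16, 0.781 and 0.503 CPM (3.37 ± 0.70). In TX1072, where Hoxd11 was not tested, the day 1 values of 0.204, 0.222 and 0.364 CPM lay above the day 0 values of 0.027, 0.189 and 0.045 CPM. Hoxd13 stood at 1.29, 1.87 and 1.51 CPM at day 0 and at 3.19, 2.71 and 2.98 CPM at day 1 in TXΔXicCast, groups that did not overlap (0.92 ± 0.29, adjusted p = 0.00871). At day 4 Hoxd13 was lower than at day 0 in TXΔXicB6 (-0.74 ± 0.29, adjusted p = 0.0283), a call lost without replicate 1 or 3, and did not pass in TXΔXicCast (-0.43 ± 0.30, adjusted p = 0.207).

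The 2 deletion lines differed in few members. At day 0, 2 of the 32 members were lower in TXΔXicCast than in TXΔXicB6 (19.7% of all genes differed), which were Hoxd10 and Hoxd13, and there the line cannot be told apart from the degraded RNA. Hoxd10 got no adjusted p from DESeq2, and its call was lost without the filter and without replicate 1 or 3, and that of Hoxd13 without any 1 replicate. At day 1, Hoxa11 was lower in TXΔXicCast (0.402% of all genes differed), with 0.063, 0.046 and 0 CPM against 0.573, 0.450 and 0.955 CPM. The groups did not overlap, but the call was lost without any 1 replicate. At days 2 and 3, 0 members differed by edgeR, and 0 of those that DESeq2 gave an adjusted p (0.372% and 1.26% of all genes by edgeR), with 0 and 4 members at an unadjusted p under 0.05 by edgeR and 0 and 3 by DESeq2.

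At day 4, 1 member differed between the deletion lines (5.86% of all genes), which was Hoxb9. It stood at 0.396, 0.577 and 0.308 CPM in TXΔXicB6 and at 1.07, 1.35 and 2.31 CPM in TXΔXicCast, without overlap. The log2 difference was 1.84 ± 0.35 (adjusted p = 0.00164, edgeR), and 1.31 without replicate 3, where it no longer passed the test. With the replicate number as a block 3 members differed, among them Hoxb9 and Hoxc13, all higher in TXΔXicCast. The change from day 0 to day 4 differed between the lines for 3 members (15.0% of all genes), among them Hoxb9 and Hoxd10, and for 6 with the replicate block, these 3 with Hoxc13, Hoxd9 and Hoxd11. None of the 3 passed without replicate 3. With day 1 as the reference the change differed for 1 member, Hoxb9 (0.749% of all genes). Markers of streak and trophoblast were also high in replicate 3 of TXΔXicCast at day 4. The 8 streak and paraxial mesoderm markers summed to 123 CPM there and to 31.8 and 21.9 CPM in the other replicates, with T the most abundant, and the 10 trophoblast markers summed to 1417 CPM against 919 and 850 CPM, with Krt8 the most abundant. Their part in the difference was not tested.

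Single TX1072 cells were captured on a microfluidic chip, and distinct UMIs were counted per gene from the 3′ end of transcripts. Of 400 capture sites a day, the study kept 277, 325, 341, 257 and 272 cells at days 0 to 4, with a median of 138565, 124651, 125591, 130377 and 171158 UMIs per cell. There was 1 culture per day, so no test was made, and the intervals cover counting error only. At day 0, 6516 Hox UMIs were counted, or 166 CPM of all UMIs of these cells (Poisson interval 162 to 171). This level fell to 14.2 at day 1 (13.0 to 15.4), and days 2, 3 and 4 gave 13.8, 10.7 and 9.99 (9.09 to 10.96 for day 4). The 10 capture columns of day 0 ranged from 130 to 213 on the same scale and those of day 1 from 4.60 to 24.4, without overlap.

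The share of cells with a Hox UMI fell with the level. At day 0, 256 of the 277 cells held at least 1 UMI of a Hox gene (92.4%, exact binomial interval 88.6 to 95.2%). At days 1 to 4 the share was 27.7, 23.2, 22.2 and 24.3%. After thinning every cell to 40000 UMIs, the shares were 86.6, 19.1, 17.9, 15.6 and 14.7%. At day 0 a cell held a median of 18 Hox UMIs from 3 genes, with at most 144 UMIs and 10 genes, and 223 cells (80.5%) held UMIs of 2 or more Hox genes. At day 1 that was so in 18 cells (5.54%).

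**Figure D4:**
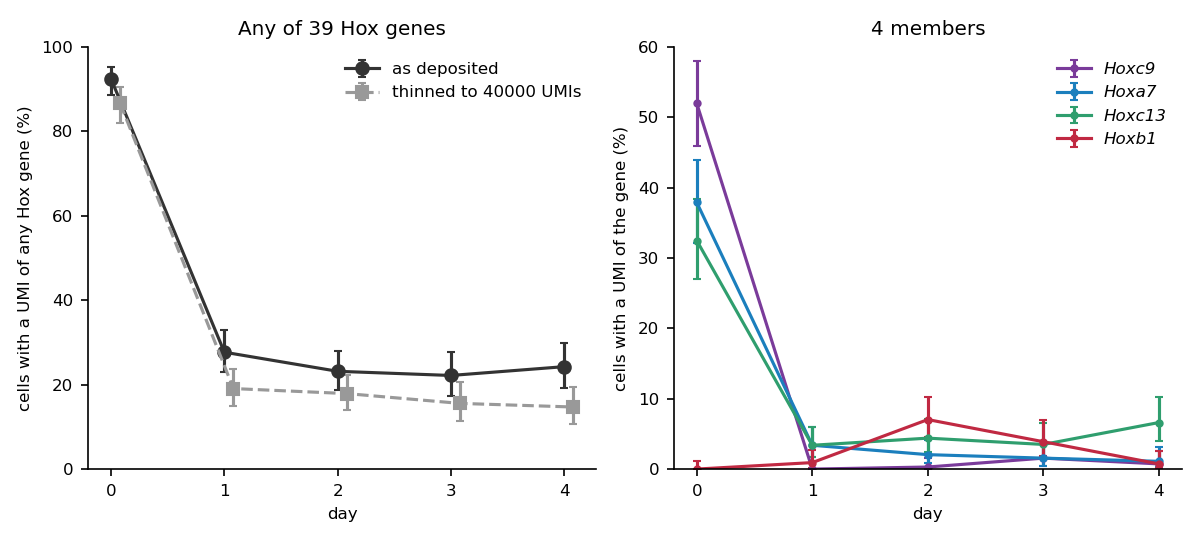
Share of retained TX1072 cells (%, y axis) with at least 1 UMI at days 0 to 4 (x axis), for any Hox gene as deposited and thinned to 40000 UMIs (left) and for 4 members (right), with exact 95% binomial intervals, or up to 3 counts of the total where no cell held a UMI. Any Hox gene was seen in 92.4% of cells at day 0 and in at most 27.7% later, while Hoxb1 was seen at day 2 in 7.04% of cells.

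Expression was spread over many cells and uneven between genes. Hoxc9 was the member with most UMIs at day 0, with 1113 UMIs in 144 of 277 cells (52.0%) and at most 47 in a cell. At day 1 it had 0 UMIs in 325 cells, which allows a share of cells with a UMI of up to 0.923% (3 counts of the total). Hoxa7 gave 1061 UMIs in 105 cells at day 0 (37.9%, interval 32.2 to 43.9%) and 75 UMIs in 11 cells at day 1. Hoxc13 gave 805 UMIs in 90 cells at day 0, 51 in 11 cells at day 1 and 115 in 18 cells at day 4. At day 4 a cell held up to 27 UMIs of Hoxc13. Several UMIs in few cells were usual in this table: genes seen in 1 to 10% of all retained cells had a median of 4.71 UMIs per cell that held any, and Hox genes 5.30.

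Hoxb1 was in 0, 3, 24, 10 and 2 cells at days 0 to 4, with 0, 5, 135, 43 and 2 UMIs. The share at day 2 was 7.04% (4.56 to 10.3%). At day 0, 0 of 277 cells allows up to 1.08%, and the interval of day 4 was 0.09 to 2.63%. These intervals cover counting error in 1 culture per day and do not test a difference between days. Hoxd1 had 20 UMIs in 5 cells at day 1 and 21 UMIs in 5 cells at day 4, and 0 UMIs at days 0, 2 and 3. The rise of Hoxd1 by day 2 in bulk was not detectable at this depth in single cells, where 0 of 341 cells at day 2 allows a share of cells with a UMI of up to 0.88%.

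At day 0, 159 of the 277 cells held UMIs of both HoxA and HoxC, 24 of HoxA only, 66 of HoxC only and 28 of neither. The product of the shares of HoxA and HoxC cells would give 149 cells with both, fewer than the 159 seen. The part of depth in this was not tested. Across these 277 cells, which share a culture and differ in depth, the levels of HoxA and HoxC, each over a cell's total UMIs, had a Pearson correlation of 0.18. The 28 cells with most Hox UMIs held 32.4% of them. The correlation of Hox UMIs per cell with depth was 0.24, and that of the Hox level with the summed naive markers was -0.01. These are descriptions over cells of 1 culture.

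Allele-specific counts, from reads over SNPs between B6 and Cast, could be read for the members with enough of them. The B6 share is the part of allele-specific counts that came from the B6 chromosome, and over all autosomal genes it lay between 50.5 and 51.4% in the libraries. With a minimum of 50 allele-specific counts over the 3 replicates, Hoxa9 had a B6 share of 26.9, 22.7 and 30.9% at day 0 in TX1072. It was 33.1 ± 6.6% in TXΔXicB6 and 32.2 ± 3.2% in TXΔXicCast (SD, n = 3). The Cast allele thus gave more counts in all 9 day 0 libraries, which ranged from 22.7 to 39.3%. The highest value came from replicate 1 of TXΔXicB6, which held only 28 allele-specific counts of Hoxa9 against 236 and 218, and 1347911 of all genes against 10218184 and 7376110 in the other replicates. Without it the range was 22.7 to 35.1%. Hoxa7 was at 30.0 ± 12.4, 38.3 ± 6.6 and 37.9 ± 4.8% in the 3 lines, and Hoxc13 at 50.7 ± 3.3, 47.2 ± 3.5 and 61.8 ± 6.1%. Hoxb9 had a B6 share of 100, 87.5 and 90.0% in TX1072 on 55 counts, against 58.9 ± 17.1 and 61.5 ± 11.4% in the deletion lines (73.1 and 63.6% in TXΔXicB6 without the shallow replicate 1, at 40.0% on 10 counts). The TX1072 values lie above all those of the deletion lines, in a table made from other libraries, and this was not tested.

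**Figure D5:**
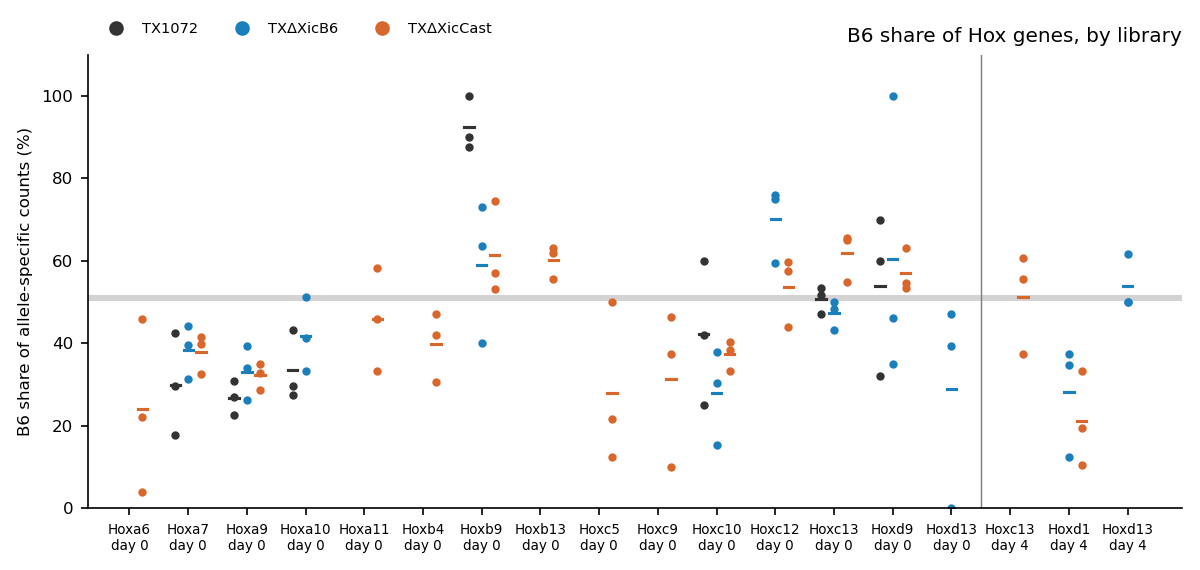
B6 share of allele-specific counts (%, y axis) of the Hox genes and days shown on the x axis, with a point per library in TX1072, TXΔXicB6 and TXΔXicCast and dashes at the means. The grey band is the range over all autosomal genes, 50.5 to 51.4%. Hoxa9 lies below the band at day 0 in all libraries, and Hoxd1 lies below it at day 4.

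At day 4 few members had enough allele-specific counts, and none had in TX1072. Hoxd1 had a B6 share of 12.5, 37.5 and 34.8% in TXΔXicB6 on 103 counts and of 19.5, 33.3 and 10.5% in TXΔXicCast on 69 counts, so that the Cast allele gave more counts in all 6 libraries. At day 3 the shares of Hoxd1 were 26.4 ± 4.2 and 37.6 ± 2.0%. Hoxd13 stood at 53.8 ± 6.7% in TXΔXicB6 and Hoxc13 at 51.3 ± 12.2% in TXΔXicCast at day 4. Hoxa9 carries 23 of the deposited SNPs in its exons and Hoxd1 9, and the part of mapping in these shares was not tested.

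Of 17 noncoding genes of the clusters, 5 could be tested in TX1072 at day 4 against day 0. Lower were Hoxa11os, antisense to Hoxa11, Halr1, beside HoxA, and Mir196a-1, which lies beside Hoxb9; Haglr, on the strand opposite to Hoxd1, was higher, and Hotairm1 did not pass (0.595, 0.530 and 0.539 CPM at day 0 and 0.478, 0.349 and 0.240 CPM at day 4). Halr1 went from 7.60, 5.71 and 6.65 CPM at day 0 up to 28.5, 29.8 and 29.5 CPM at day 1 (2.13 ± 0.19, adjusted p = 5.32e-08, edgeR), when most HoxA members had fallen, and then to 0.068, 0.159 and 0.150 CPM at day 4 (-5.67 ± 0.31 against day 0, adjusted p = 2.19e-11). Haglr went from 0.081, 0.038 and 0.045 CPM to 0.990, 1.14 and 0.750 CPM (3.96 ± 0.48, SE), and was higher in both deletion lines as well. Haglr passed the filter with no day 0 library above its limit and Hoxa11os with no later one, so that their calls are descriptions. Haglr starts at 74762896 on the minus strand of chromosome 2 and Hoxd1 at 74762980 on the plus strand, so that they point away from each other, and their annotated exons share no base. Mir196a-1 went from 1.81, 1.40 and 1.30 CPM to 0.171, 0.222 and 0.180 CPM (-2.96 ± 0.38, adjusted p = 2.2e-06). These are reads over the locus in total RNA, not mature miRNA.

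The mature miRNAs of the 196 family are shown because their genes lie inside the clusters beside group 9, with Mir196b in an exon of Hoxa9. Their seed (bases 2 to 8) is in capitals and is shared.
mmu-miR-196a-5p: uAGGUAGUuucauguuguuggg
mmu-miR-196b-5p: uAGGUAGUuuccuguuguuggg

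Of 14 genes beside the clusters tested in TX1072 at day 4, 4 were higher and 5 lower, shares near those of all genes (30.2% higher and 29.4% lower). These shares of all genes are the background for the other lists of genes in this comparison too. Evx1, next to Hoxa13, went from 0.379, 1.67 and 0.719 CPM to 5.70, 2.54 and 3.21 CPM (2.08 ± 0.57, adjusted p = 0.0045, edgeR). Skap2, also beside HoxA, went from 55.0, 49.7 and 47.6 CPM to 18.3, 15.1 and 15.4 CPM (-1.64 ± 0.11, adjusted p = 2.87e-10). The groups of days 0 and 4 did not overlap for either gene. The call of Skap1 (1.06 ± 0.40, SE), which had no day 0 library above the limit of the filter, was lost without any 1 replicate, without the filter on low counts and with DESeq2. Smug1 fell by 1.05 on the log2 scale (SE 0.11, adjusted p = 1.66e-07, edgeR). In the deletion lines 3 of 14 were higher and 3 lower in TXΔXicB6 (30.0% and 29.5% of all genes), and 4 higher and 5 lower in TXΔXicCast (36.2% and 33.6% of all genes).

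Known partners and regulators moved in both directions. Of the 9 TALE cofactors, which bind DNA together with Hox proteins, 5 were higher and 3 lower at day 4 in TX1072. Meis2 went from 45.4, 56.5 and 52.5 CPM to 3.41, 1.81 and 2.43 CPM (-4.34 ± 0.21, adjusted p = 6.62e-12, edgeR). Meis1 (2.18 ± 0.28) and Meis3 (2.14 ± 0.19) rose. Of the caudal genes, which activate central and posterior Hox genes, Cdx1 went from 34.0, 50.3 and 62.3 CPM to 1.19, 1.68 and 1.44 CPM (-5.08 ± 0.30, adjusted p = 6.3e-11). Cdx2 went from 7.03, 17.1 and 7.46 CPM to 1.67, 2.10 and 2.52 CPM (-2.32 ± 0.37, adjusted p = 2.71e-05). Both fell in the deletion lines too. Cdx4 lies on the X chromosome (103321398 to 103330592) within the deleted region, so that TXΔXicB6 holds the Cast copy alone and TXΔXicCast the B6 copy alone. It was higher in TX1072 (2.58 ± 0.34) and TXΔXicB6 (2.20 ± 0.39) and lower in TXΔXicCast (-1.84 ± 0.43, adjusted p = 0.00049).

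Among retinoic acid and posterior signalling genes, more were higher than lower at day 4. In TX1072, of 18 retinoic acid genes tested, 10 were higher and 3 lower. Cyp26a1, which degrades retinoic acid, went from 0.027, 0 and 0 CPM to 27.2, 6.06 and 7.91 CPM, and Aldh1a3, which makes it, went from 24.9, 25.8 and 20.9 CPM to 0.546, 0.476 and 0.750 CPM (-5.32 ± 0.22, adjusted p = 7.45e-13, edgeR). Rxrg, a receptor, had no count at day 0 and stood at 3.28, 2.79 and 2.10 CPM at day 4. Of 11 posterior signals tested, 9 were higher and 2 lower. Fgf8 went from 0.027, 0.076 and 0.090 CPM to 54.2, 32.3 and 28.1 CPM, and Wnt3 from 0.189, 0.378 and 0.090 CPM to 39.1, 37.5 and 36.8 CPM. In TX1072, Cyp26a1, Rxrg, Fgf8, Wnt3 and Egr2 passed the filter with at most 1 day 0 library above its limit, through the days where they are high, so that their calls are descriptions. Of 6 hindbrain regulators tested, 3 were higher, among them Egr2, and 3 lower, among them Gbx2; the call of Egr2 was lost without replicate 1. In TXΔXicB6 8 of 18 retinoic acid genes were higher and 3 lower, and 7 of 12 signals higher and 2 lower (30.0% and 29.5% of all genes). In TXΔXicCast 9 of 18 retinoic acid genes were higher and 6 lower, and 6 of 12 signals higher and 2 lower (36.2% and 33.6% of all genes).

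Of 21 Polycomb and trithorax genes tested in TX1072 at day 4, 12 were lower and 3 higher. Epop, a partner of Polycomb repressive complex 2 in mESCs, went from 295, 403 and 515 CPM to 30.9, 44.7 and 40.1 CPM (-3.39 ± 0.19, adjusted p = 3.36e-11, edgeR). Suz12, a core subunit of that complex, went from 545, 448 and 521 CPM to 200, 176 and 231 CPM (-1.32 ± 0.15, adjusted p = 6.94e-07). Mtf2 fell by 1.82 on the log2 scale (SE 0.16), and Phf19, another of its partners, rose by 1.91 ± 0.19. In both deletion lines 15 of the 21 were lower and 4 higher, where 29.5% of all genes were lower and 30.0% higher in TXΔXicB6 and 33.6% and 36.2% in TXΔXicCast.

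Markers of other cell types changed over the same days. Of the tested trophoblast markers, 5 of 7 were higher at day 4 in TX1072, and the 10 genes summed to 82.9 ± 18.1 CPM at day 0 and 1105 ± 137 CPM at day 4, most of it Krt8, with Prl3d1 at 0 at both days. The 8 endoderm markers summed to 4.75 ± 1.06 and 43.2 ± 11.1 CPM, with Dab2 the most abundant and 6 of 6 tested higher. The 8 streak and paraxial markers summed to 21.6 ± 2.09 and 142 ± 72.2 CPM, with T the most abundant, Msgn1 at 0 at day 4 and 3 of 6 tested higher. The 10 neural markers summed to 100.1 ± 18.8 and 201 ± 13.8 CPM, with Nes the most abundant and 4 of 6 tested higher, and the 10 lateral and extraembryonic mesoderm markers to 30.9 ± 5.75 and 27.9 ± 4.00 CPM, with 7 of 8 tested higher. Lower in these lists were Cdx2 and Tfap2c (trophoblast), Meox1 and Tcf15 (streak and paraxial), Olig2 and Sox1 (neural) and Tbx20 (mesoderm). The trophoblast list holds Cdx2 and the mesoderm list Bmp4, which other lists here hold as well. The 8 naive markers were all lower in all 3 lines. The part of these markers in the change of the Hox genes was not tested.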

How the data were processed

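Bulk RNA-seq libraries of TX1072, TXΔXicB6 and TXΔXicCast mESCs and single TX1072 cells were analysed from the tables the authors deposited. Per the labels and the study's methods, reads were aligned with STAR 2.5.2b to a genome of mm10 (GRCm38) in which SNPs between B6 and Cast were masked, and uniquely aligned reads over exons were counted per gene with featureCounts, which gave the raw counts the authors deposited for all reads and for reads assigned to each allele. The strand setting of the counting is not given in the sources used here. Single-cell UMI counts were deposited per capture site. They were summed per day over the 1472 cells of 2000 sites that the study retained. Sites of poor quality, sites whose cell had lost an X chromosome and, by imaging, sites without a cell or with several cells had been left out. All capture columns share the same 40 row barcodes. The deposited table of 18658116 SNP positions was used only to count SNPs in exons. The spliced, unspliced and allele-specific UMI tables were not used here.

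Genes passing filterByExpr (minimum count 10) were normalized with TMM and tested with the quasi-likelihood test of edgeR 4.0.16 in R 4.3.3, two-sided, with p-values adjusted by Benjamini-Hochberg over all genes tested and a threshold of 0.05. The 15 TX1072 libraries and the 30 libraries of the deletion lines were fitted separately. Alternatives were DESeq2 1.42.0, its size factors, TMM factors from autosomal genes, no filter, a replicate block, leaving out each replicate, and other references. The procedure was tested on simulated data. A group without a count was set to 3 counts over the group for a bound, and ratios on 1 to 3 counts were given a counting interval. Intervals are at 95% and cover counting error only. Tables and figures were made with Python 3.11.15, scipy 1.17.1 and matplotlib 3.10.9.

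Differentiation was started on a different day for each replicate number. Deviations of same-numbered libraries from their group means had a median correlation of 0.126 in TX1072 and 0.185 within the deletion lines, against -0.068 and -0.109 for other numbers, so the numbers were taken to pair the samples. The main tests did not use this pairing, and their p-values are unpaired. It entered only through the replicate block, which was an alternative. Values in every library were given for members past the test at day 4 in TX1072 with a mean of at least 0.5 CPM at day 4, for those past the test between the deletion lines at day 4, and for the 3 members with the highest mean CPM at day 0. At most 4 genes were named from each other list. Hoxb1, Hoxb3, Hoxc8, Hoxc9, Hoxd9, Hoxd10, Hoxd11, Hoxd12 and Hoxa11 were named after their values were seen. Some genes of the lists are in the counts and sums but are not reported here by name. The members and lists were chosen with earlier results of these data known.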

Additional observations from a re-analysis of the deposited data

Results flagged for a closer look

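The change from day 0 to day 4 differed between TXΔXicCast and TXΔXicB6 for Hoxb9 and Hoxd10, by an interaction term in the edgeR fit. It was larger in TXΔXicCast by 2.22 ± 0.44 on the log2 scale for Hoxb9 (adjusted p = 0.00157) and by 3.41 ± 0.88 for Hoxd10 (adjusted p = 0.00958), which means that these genes fell less in TXΔXicCast. Hoxd10 had 3 counts in all at day 4 in TXΔXicB6, so that its fitted value depends on the prior count. Without replicate 3 neither passed the test, with 1.58 for Hoxb9 and 3.24 for Hoxd10. Without replicate 1, Hoxd10 did not pass either. With day 1 in place of day 0 as the reference, Hoxb9 alone passed (2.38 ± 0.50, adjusted p = 0.0188, edgeR; 0.749% of all genes). The day 0 libraries of TXΔXicCast came from degraded RNA, and the part of this in the differences from day 0 was not tested.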

How the results depend on the processing

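For single genes under the alternatives, 1055 values kept their direction and their side of the threshold, 23 no longer passed the test and none reversed. Against day 0, the number of members called at day 4 was 24 to 28 in TX1072, 29 to 33 in TXΔXicB6 and 25 to 27 in TXΔXicCast over normalizations, filters, DESeq2, the replicate block and left-out replicates. With day 1 as the reference it was 9 in TX1072 (chosen after seeing the data), 23 in TXΔXicB6 and 14 in TXΔXicCast.

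Between the deletion lines, the count at day 0 was 1 without the filter on low counts and 0 to 1 when a replicate was left out. At day 1 it was 2 without the filter and 0 to 0 when a replicate was left out. At day 4 it was 3 with DESeq2, 2 without the filter, 3 with the replicate block and 0 to 2 when a replicate was left out. For the change from day 0 to day 4 it was 5 without the filter, 6 with the replicate block, 0 to 3 when a replicate was left out and 1 with day 1 as the reference. With the replicate block, all 135 single-gene values followed here kept their direction and passed the test. Members newly called with the block against day 0 were not followed one by one. The cause of the shifts in these counts was not tested.

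The B6 share at day 4 could be read for 4 pairs of a member and a line. It was 9 pairs with a minimum of 20 allele-specific counts and 29 at day 0, the latter chosen after seeing the data. Over all capture sites, Hox UMIs made up 159 CPM at day 0, 13.8 CPM at day 3 and 11.5 CPM at day 4, and 86.5% of sites held one at day 0. Thinned to 40000 UMIs, the shares of cells were 86.6, 19.1, 17.9, 15.6 and 14.7% at days 0 to 4. Levels near 3 counts over a group, 0.027 to 0.039 CPM, limit the folds of most members after day 0.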
